A study of Mus musculus with 2 samples.

Results

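Of 9307 autosomal gene-end regions that carried at least 100 counts, 981 (10.5%) had at least 2-fold more counts in the stretched than in the control library of mouse basal epidermal cells. These 981 regions are described here. Most of them (802) hold the annotated start of a gene, 6 touch only a far end and 173 an end of unknown kind, so not all are shown to be promoters. They were drawn from 109257 merged regions, a common set of accessible sites over which the authors counted both libraries. A region qualified if it was autosomal, touched an annotated end of a protein-coding gene (RefSeq, GRCm38) and held at least 100 counts over both libraries together, but no more than 10000. Its stretched over control count ratio, divided by the median ratio of all regions with at least 20 counts (0.944), had to be at least 2. The same readout chose the regions, so their ratios are given as a description and nothing is tested with them.

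Open chromatin was mapped by ATAC-seq, an assay whose Tn5 transposase cuts accessible DNA and attaches sequencing adapters. The stretched library came from the back skin of 1 CD1 mouse whose skin had been expanded by mechanical force, and the sample is titled Exp-D2. The control library came from the back skin of 1 untreated CD1 mouse. CD1 is an outbred stock, so both animals differ in genotype as well as in treatment. Each library was made from 10000 interfollicular epidermal cells sorted as positive for ITGA6, an integrin subunit of the basal layer, and negative for CD34, which marks stem cells of the hair follicle. With 1 library per group there was no replicate check and no p-value. All intervals are exact 95% intervals (Clopper-Pearson) for counting error only. In such bulk libraries, a change in the share of a cell type and a change in accessibility per cell cannot be told apart.

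A promoter is the stretch of DNA around the start of a gene where RNA polymerase II and the general transcription factors assemble. Most mammalian promoters of genes used in all cell types lie in CpG islands, stretches rich in the dinucleotide CpG that are usually unmethylated and free of nucleosomes at the start site. These promoters often hold GC boxes for SP and KLF factors and sites for ETS factors, NRF1, NF-Y or YY1. Genes of specialised cells more often start in DNA poor in CpG. Open promoters give strong ATAC-seq signal, and many neighbours share a start region from which they are read in opposite directions.

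The promoter windows below were chosen from the regions with the largest ratios and from those with the most counts, to show the range of sequence found among the 981. Each is the 250 bases before an annotated start, read 5′ to 3′ on the strand of the gene (RefSeq, GRCm38.p6), with every CpG in capitals. C1s1 encodes a protease of the complement system, and its region had the largest ratio. Its window, chr6:124542322-124542571 on the minus strand, held 1 CpG.
C1s1: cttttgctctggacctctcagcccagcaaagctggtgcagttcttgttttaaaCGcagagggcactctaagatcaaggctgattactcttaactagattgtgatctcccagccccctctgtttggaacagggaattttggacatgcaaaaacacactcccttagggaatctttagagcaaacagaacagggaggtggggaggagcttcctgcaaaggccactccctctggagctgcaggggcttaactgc
Ccser2 encodes a coiled-coil protein, and its window, chr14:36968765-36969014 on the minus strand, held 19 CpG.
Ccser2: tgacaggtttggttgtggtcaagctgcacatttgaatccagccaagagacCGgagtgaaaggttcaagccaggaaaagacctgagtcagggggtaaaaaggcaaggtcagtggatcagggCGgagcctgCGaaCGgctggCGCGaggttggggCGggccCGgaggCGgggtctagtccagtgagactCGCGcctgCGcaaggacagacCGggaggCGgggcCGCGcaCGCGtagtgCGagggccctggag
Immp2l encodes a peptidase of the mitochondrial inner membrane, and its window, chr12:41023840-41024089 on the plus strand, held 24 CpG.
Immp2l: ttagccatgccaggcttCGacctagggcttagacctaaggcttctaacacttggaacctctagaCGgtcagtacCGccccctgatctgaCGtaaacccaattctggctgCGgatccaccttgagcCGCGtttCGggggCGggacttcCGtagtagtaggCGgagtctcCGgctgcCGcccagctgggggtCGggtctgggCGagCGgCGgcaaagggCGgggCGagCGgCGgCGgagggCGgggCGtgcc
Gk5 encodes a glycerol kinase, and its window, chr9:96119179-96119428 on the plus strand, held 30 CpG.
Gk5: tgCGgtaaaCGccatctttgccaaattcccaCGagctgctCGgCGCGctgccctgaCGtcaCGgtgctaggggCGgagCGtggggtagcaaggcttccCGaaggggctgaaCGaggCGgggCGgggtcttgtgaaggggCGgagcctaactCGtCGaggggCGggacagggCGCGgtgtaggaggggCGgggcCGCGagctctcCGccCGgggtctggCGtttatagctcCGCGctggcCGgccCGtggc
Smc6 encodes a subunit of a DNA repair complex and shares its region with Gen1, the gene of an enzyme that cuts recombination junctions. The Smc6 window, chr12:11265636-11265885 on the plus strand, held 14 CpG.
Smc6: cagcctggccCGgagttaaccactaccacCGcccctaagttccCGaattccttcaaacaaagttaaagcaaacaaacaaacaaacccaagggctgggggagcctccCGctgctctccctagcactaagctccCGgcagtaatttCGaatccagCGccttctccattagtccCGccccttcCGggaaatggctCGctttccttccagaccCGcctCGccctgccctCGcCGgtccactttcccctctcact
Sp4 encodes a transcription factor that binds GC boxes. Its region had the highest stretched count of the 981, and its window, chr12:118301441-118301690 on the minus strand, held 37 CpG, the most of those printed.
Sp4: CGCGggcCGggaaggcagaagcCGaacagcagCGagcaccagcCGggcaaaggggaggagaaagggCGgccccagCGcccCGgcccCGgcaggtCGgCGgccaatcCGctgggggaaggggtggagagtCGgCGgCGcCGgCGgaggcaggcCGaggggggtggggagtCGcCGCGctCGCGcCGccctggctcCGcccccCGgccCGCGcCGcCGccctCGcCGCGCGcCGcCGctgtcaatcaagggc
Aasdhppt encodes an enzyme that attaches phosphopantetheine to proteins and shares its region with Kbtbd3. Its window, chr9:4309495-4309744 on the minus strand, held 19 CpG.
Aasdhppt: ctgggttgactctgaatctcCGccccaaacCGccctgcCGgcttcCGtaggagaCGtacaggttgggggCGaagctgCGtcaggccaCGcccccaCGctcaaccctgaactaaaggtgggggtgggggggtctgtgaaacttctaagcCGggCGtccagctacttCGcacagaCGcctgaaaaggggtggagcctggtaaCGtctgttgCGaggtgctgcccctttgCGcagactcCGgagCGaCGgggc
Pja2 encodes a ubiquitin ligase, and its window, chr17:64331884-64332133 on the minus strand, held 32 CpG.
Pja2: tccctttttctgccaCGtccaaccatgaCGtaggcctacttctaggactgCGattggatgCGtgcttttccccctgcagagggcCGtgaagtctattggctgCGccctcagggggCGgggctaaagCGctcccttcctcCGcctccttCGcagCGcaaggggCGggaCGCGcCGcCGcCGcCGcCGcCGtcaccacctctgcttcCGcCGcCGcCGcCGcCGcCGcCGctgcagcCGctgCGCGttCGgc
C1s1 thus stands apart from the other 7 in its CpG content. The printed C1s1 window held no match to the 18 motifs searched on both strands, while a second annotated C1s1 window, chr6:124542360-124542609, held a TEAD match from -221 to -216. Matches are counted from the start site, with -1 the base just before it. The Smc6 window had an ETS motif (CCGGAAG, here as CTTCCGG) from -74 to -68, and GC boxes (GGGCGG) stood in the Ccser2, Immp2l, Gk5, Smc6, Sp4, Aasdhppt and Pja2 windows. The Gk5 window also had a cyclic AMP response element (TGACGTCA) from -197 to -190, and the Ccser2 window an NRF1 motif from -62 to -53.

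The stretched library had 11803785 counts over all regions and the control library 8820178, of which 10 regions with over 10000 counts each took 48.9% in the stretched and 34.5% in the control library. Outside them the totals were 6027023 stretched and 5776423 control. Fragments after filtering, per the headers of the peak tables, went the other way, at 23876613 stretched and 31944854 control. Basal keratinocyte markers were accessible in both libraries: the pair of Krt5 regions had 232 and 297 counts in the stretched library and 237 and 306 in the control library, and Itga6 had 235 stretched and 159 control counts. Summed over 5 basal markers with a gene-end region (none stood at Trp63), there were 1783 stretched and 1592 control counts, a ratio of 1.19 (1.11 to 1.27). The median ratio of all 9307 gene-end regions with at least 100 counts was 1.28. Single basal marker regions ran from 0.96 at Col17a1 to 1.66 at Krt14, which had a second region at 1.29. T cell markers with a region (2 of 5) summed to 80 stretched and 173 control counts, endothelial markers (1 of 5) to 27 stretched and 60 control, fibroblast markers (1 of 6) to 14 stretched and 25 control, and hair follicle markers (4 of 5) to 318 stretched and 381 control counts. Melanocyte markers (3 of 6) summed to 771 stretched and 630 control counts. None of the 981 regions stood at a gene of any of the 10 marker lists, and the part of other cells in the ratios was not tested.

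The 981 regions had a median of 277 counts in the stretched library (67 to 1651) and 126 in the control library (26 to 802). The other 8326 strong gene-end regions had medians of 146.5 stretched and 130 control counts, so control counts were close in both sets. Counts are per region and not per base, but length hardly differed, with a median of 1314 bp for the 981 and 1345 bp for the rest. The median scaled ratio of the 981 was 2.27, with quartiles of 2.12 and 2.50. Most lay close above the limit: 738 (75.2%) were under 2.5 and 48 (4.89%) at 3 or more. The counting interval lay above 1 for all 981, which the rule's limits on ratio and count ensure. It lay wholly at or above 2 for 240 (24.5%). As background, 10.5% of all strong gene-end regions passed the 2-fold rule upward and 0.86% (80) downward, and their median log2 ratio was 0.36. The number that passed depended on how the libraries were scaled: it was 69 with total counts, 574 with the counts outside the 10 largest regions and 2642 with the fragments after filtering. Among all 34631 autosomal regions with at least 100 counts, 6.02% passed upward, and among the 93145 with at least 20 counts, 8.05%. Away from genes, 4.38% of 23675 strong regions over 1 kb from any gene end passed.

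**Figure D1:**
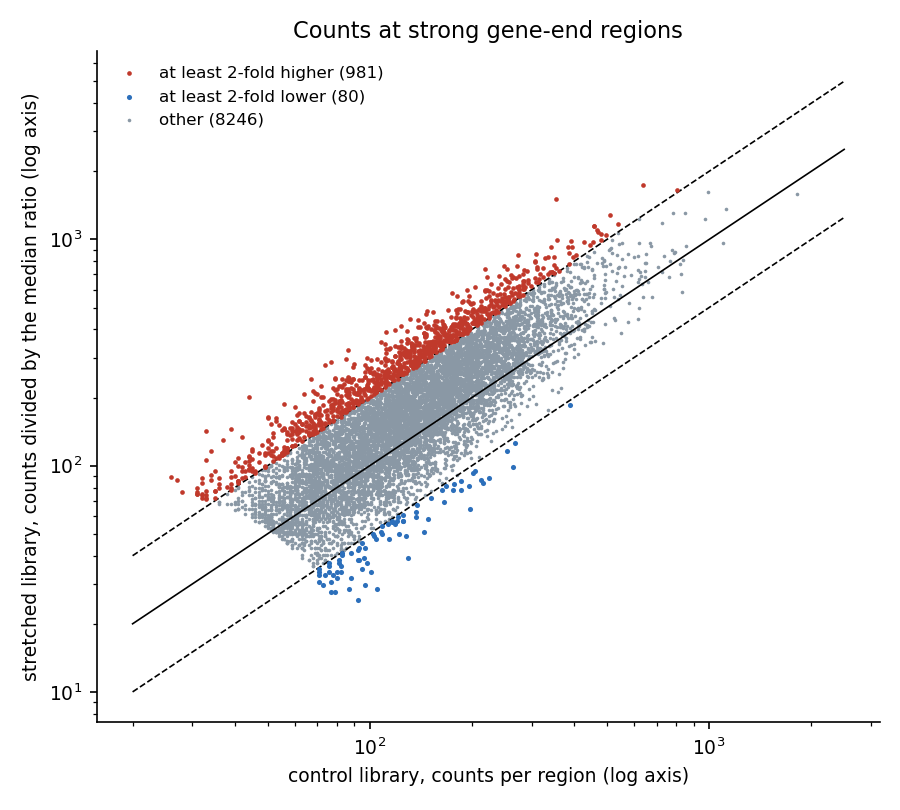
Counts of each strong gene-end region, 1 point per region, with the stretched library (counts divided by the median ratio, log axis) on the y axis and the control library (counts, log axis) on the x axis. The solid line marks equal values and the dashed lines 2-fold; the 981 regions above the upper dashed line are red, the 80 below the lower one are blue, and most red points lie close above the line.

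The peak tables gave a second readout from the same libraries, the pileup of fragments at the summit. It is no independent sample. A peak was listed in the stretched library for 980 of the 981 regions and in the control library for 971. The highest summit had a median pileup of 128 fragments in the stretched and 53 in the control library for the 981, against 70 stretched and 51 control for the other regions. The pileup ratio was divided by its own median (1.10) over regions with at least 20 summed counts and a peak in both libraries. For the 971 regions with both peaks it had a median of 2.10. All 971 were above 1, and 560 (57.7%) were at 2 or more. Of the other strong gene-end regions with both peaks, 474 of 8259 (5.74%) reached 2, and their median was 1.23. Fold enrichment over local background, as the authors' peak caller gave it, had medians of 11.8 stretched and 7.92 control for the 981. For the rest these medians were 9.60 stretched and 7.15 control, so that the stretched library had the higher enrichment in both sets.

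A peak was missing from the control list alone at 9 regions, those of C1s1, Marcks, Caap1, Arf5, Ptprn2, Sertad4, Taf4, Wsb2 and Fosb. The 1 region without a stretched peak, at Yod1 (71 stretched and 31 control counts), had no control peak either. At Marcks, which encodes a membrane-bound substrate of protein kinase C that binds actin, the stretched library had 110 counts and a pileup of 45, and the control library had 34 counts and no listed peak.

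C1s1 had 189 stretched and 44 control counts, a ratio of 4.55 (3.26 to 6.47), on chromosome 6 from 124542087 to 124543121. Its stretched pileup was 140 fragments. Adamts6, the gene of a secreted metalloprotease, had 134 stretched and 33 control counts and a ratio of 4.30 (2.92 to 6.50). The third largest ratio, 4.24 (3.78 to 4.78) from 1419 stretched and 354 control counts, came from a region at 2 predicted genes, Gm20783 and LOC108167694, near the end of chromosome 9. What these predicted genes do is not annotated, and reads from near-identical copies elsewhere could be split or pooled there. Itfg2, which encodes a subunit of a complex that restrains mTORC1 signalling, had 264 stretched and 74 control counts (3.78, 2.91 to 4.96). Ccser2 had 306 stretched and 86 control counts (3.77, 2.96 to 4.84). The next 5 were the regions of Gk5 (137 stretched, 39 control), Ap3s1 with Atg12 (270 stretched, 77 control), Immp2l (228 stretched, 67 control), Commd9 (123 stretched, 37 control) and Smc6 with Gen1 (368 stretched, 112 control), with ratios between 3.72 and 3.48. Ap3s1 encodes a subunit of an endosomal sorting coat and Atg12 a ubiquitin-like protein of autophagy, and they share 1 region on chromosome 18. In all 10, the lower end of the counting interval was above 2.

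The other regions with the most counts, leaving out that of Gm20783 and LOC108167694 above, had ratios between 2.07 and 2.74. Sp4 had 1651 stretched and 637 control counts, a ratio of 2.74 (2.50 to 3.01), with pileups of 367 stretched and 141 control. Sap130, which encodes a subunit of the SIN3A corepressor complex, had 1566 stretched and 802 control counts (2.07, 1.90 to 2.25), and its pileups were 599 stretched and 327 control. Several genes of this group are read from shared regions. Aasdhppt and Kbtbd3 shared 1207 stretched and 510 control counts (2.51, 2.26 to 2.78). Dcaf6, a substrate receptor of a cullin ligase, and Mpc2, a subunit of the mitochondrial pyruvate carrier, shared 1084 stretched and 459 control counts. Pdcd10, a gene of vascular integrity, and Serpini1, a serine protease inhibitor of neurons, shared 1081 stretched and 459 control counts. Leprot, which encodes an endosomal membrane protein, had 1042 stretched and 468 control counts (2.36, 2.11 to 2.63), and Pja2 had 1002 stretched and 480 control counts (2.21, 1.98 to 2.47). B3galnt2, an enzyme that glycosylates dystroglycan, had 1021 stretched and 470 control counts. The region shared by Cnga4 and Fam160a2 had 1101 stretched and 537 control counts (2.17, 1.96 to 2.41). Shared regions give 1 value for both genes, so the counts cannot be assigned to either.

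**Figure D2:**
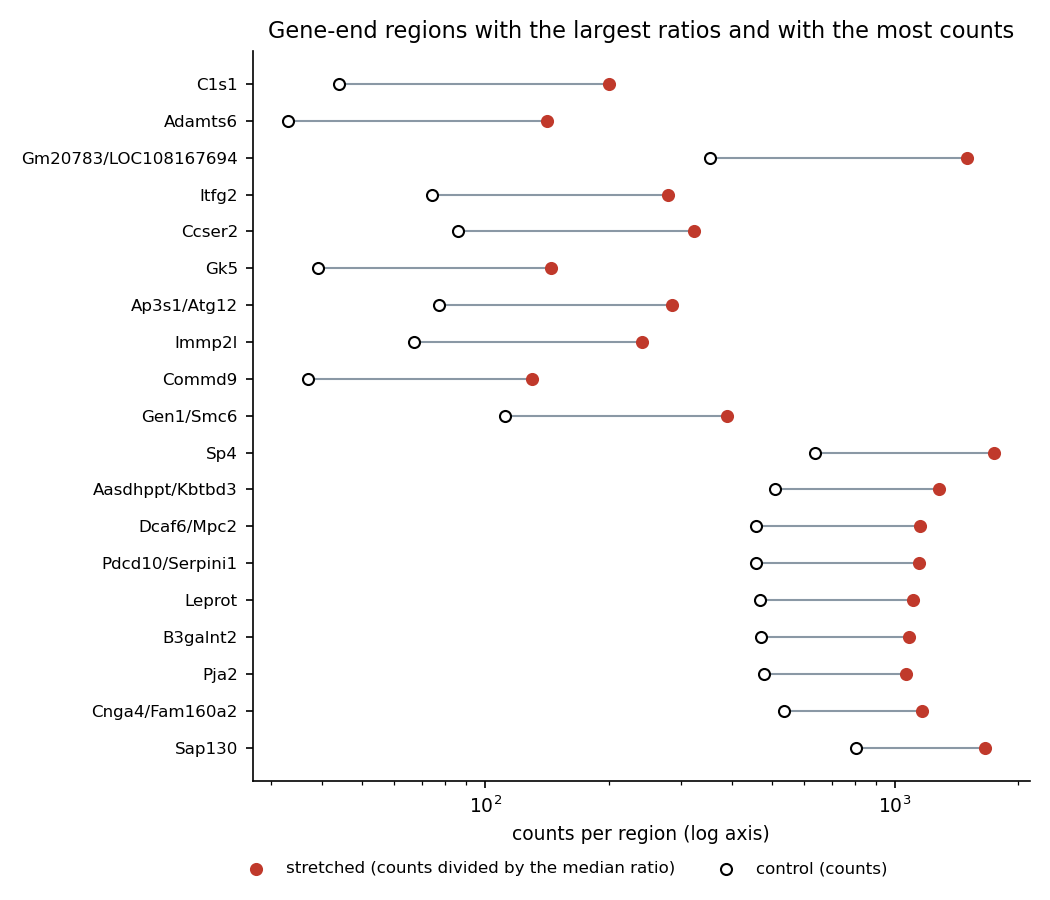
Counts per region (log axis) of the 10 regions with the largest ratios and the 10 with the most counts, 1 of which is in both sets, in the stretched library (filled, counts divided by the median ratio) and the control library (open). The regions with the largest ratios mostly have under 400 stretched counts, and those with the most counts lie at 1000 or more in the stretched library and 802 or fewer in the control library.

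The limit cut through a continuous range. Just inside it were Rmnd5a (682 stretched, 361 control) and Fam174a (340 stretched, 180 control), and just outside it Dmxl1 (457 stretched, 242 control), Zbtb41 (304 stretched, 161 control) and Aftph (287 stretched, 152 control). All 5 ratios round to 2.

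Genes of the transcription machinery had the largest share of the 29 lists with the median ratio as scale. Of 103 strong regions at genes of Mediator, RNA polymerase II and the general transcription factors, 23 (22.3%) were among the 981, and the median log2 ratio of all 103 was 0.52, beside 10.5% and 0.36 over all strong regions. Cdk13, a kinase of the polymerase tail, had 566 stretched and 276 control counts. Gtf2a1, a subunit of TFIIA, had 455 stretched and 213 control counts. Gtf2b, which encodes TFIIB and helps place the polymerase at the start site, had 183 stretched and 68 control counts, a ratio of 2.85. Also among the 23 were 8 genes of TBP-associated factors (Taf1a, Taf1d, Taf2, Taf4, Taf4b, Taf7, Taf9 and Taf10, of which Taf1a and Taf1d serve RNA polymerase I), the Mediator genes Med28 and Cdk8 and the polymerase subunit Polr2b (400 stretched, 193 control). This rank depended on the scaling. With the median of the gene-end regions as scale, 1.94% of the list passed. This was just below the share of all strong gene-end regions (186 of 9307). With counts outside the large regions 10.7% passed, against 12.5% of the nuclear transport, 12.3% of the DNA repair and 12.2% of the centrosome list. With fragments after filtering 38.8% passed, against 52% of the RNA-binding, 51.4% of the cytosolic ribosomal and 50% of the cell cycle list. Without the trend with count 6.80% passed, against 9.21% of the chaperone list. Of all strong gene-end regions, 6.17% passed with counts outside the large regions, 28.4% with fragments and 3.19% without the trend. The list lay above each of these shares, but not above that with the median of the gene-end regions. All the lists were drawn up with results of these data known, so their shares are no independent support.

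Cell division and genome maintenance genes lay above the background as well. In the cell cycle list 17 of 98 regions (17.3%) were among the 981, with a median log2 ratio of 0.66 over the list. Mcm4, a subunit of the replicative helicase, and Prkdc, a kinase that joins broken DNA ends, shared a region with 614 stretched and 258 control counts (2.52, 2.18 to 2.93). Mad2l1, a protein of the spindle checkpoint, had 572 stretched and 275 control counts. Ccne1, the gene of cyclin E, had 259 stretched and 89 control counts, and Cenpe, a kinetochore motor, had 230 stretched and 79 control counts, both with a ratio of 3.08. In the DNA repair list the share was 14 of 81 (17.3%). Bard1, the partner of BRCA1, had 328 stretched and 129 control counts, a ratio of 2.69. In the centrosome and cilium list it was 14 of 82 (17.1%), with 749 stretched and 306 control counts at the region of Cep290, a protein of the ciliary base, and Tmtc3. Cep170 and Sdccag8 shared 672 stretched and 349 control counts. The cell cycle list includes inhibitors too: Cdkn2b, which encodes an inhibitor of the cyclin D kinases, had 215 stretched and 112 control counts.

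The joint list of immediate-early and AP-1 genes had 8 of 37 regions among the 981 (21.6%, median log2 ratio 0.53). Immediate-early genes respond to stimuli without new protein synthesis, and the list is not limited to them. With counts outside the large regions as scale, 2 of the 37 passed (5.41%), beside 6.17% of all strong gene-end regions. With each of the other scalings, and without the trend with count, the share was above that of all strong gene-end regions. It was 37.8% beside 28.4% with fragments after filtering and 8.11% beside 3.19% without the trend. Few regions passed with the gene-end median (5.41%, beside 186 of all 9307) or total counts (2.70% beside 0.74%). Klf9, a zinc finger factor induced by glucocorticoids, had 476 stretched and 240 control counts. Btg1, a gene that restrains proliferation, had 412 stretched and 158 control counts (2.76, 2.29 to 3.34). Klf6 counted with 2 regions, 1 with 265 stretched and 90 control counts (3.12) and 1 with 93 stretched and 49 control counts at its far end. Nr4a2 and Nr4a3, nuclear receptors, had 132 and 300 stretched counts, against 68 and 151 control counts. Fosb, an AP-1 subunit, had 81 stretched and 41 control counts, and Atf2 had 373 stretched and 179 control counts. In the stress and NF-kB list the share was 3 of 34 (8.82%), at Rel (222 stretched, 103 control), Relb (285 stretched, 139 control) and Il4ra (249 stretched, 123 control), the Il4ra region lying at the far end of the gene. Both Rel and Relb encode NF-kB subunits.

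Genes of RNA and protein synthesis were split. The splicing list had 8 of 60 regions (13.3%), with 356 stretched and 145 control counts at Srsf6, a splicing regulator, and 460 stretched and 219 control counts at the region shared by U2af2, which recognises the end of introns, and Ccdc106. The list of other RNA-binding proteins had 6 of 50 (12%), with a median log2 ratio of 0.69. Ythdc1, which binds methylated adenosine in RNA, had 386 stretched and 139 control counts (2.94, 2.42 to 3.60), and Ythdf3, of the same reader family, had 315 stretched and 154 control counts. Cytosolic ribosomal protein genes had 11 of 72 (15.3%) and a median log2 ratio of 0.68. Of these 72, 1 passed with the gene-end median as scale (1.39%), below the share of all strong gene-end regions (186 of 9307). With total counts 0 passed, beside 0.74% of all strong gene-end regions. With fragments after filtering 37 passed (51.4%, beside 28.4% of all strong gene-end regions). Rpl37, with Card6, had 354 stretched and 145 control counts (2.58, 2.12 to 3.16), and Rps27a, with Clhc1, had 287 stretched and 142 control counts. Mitochondrial ribosomal genes were at 7 of 65 (10.8%) and translation factors at 7 of 67 (10.4%), near the background. Their highest counts were at Mrpl17 (817 stretched, 309 control; 2.80, 2.45 to 3.20), Mrps28 (549 stretched, 175 control) and Eif2a with Serp1 (381 stretched, 193 control). Eif4e, the cap-binding factor, had 258 stretched and 134 control counts.

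Membrane and protein traffic, folding and turnover gave shares between 14.1% and 14.8%, with the proteasome lower. Membrane traffic had 31 of 210 regions (14.8%), with Sec23a, a subunit of the coat that carries proteins out of the endoplasmic reticulum, at 505 stretched and 256 control counts. Arl13b, a small GTPase of cilia, had 507 stretched and 228 control counts. Rab GTPases and their partners had 8 of 54 (14.8%), with Rab5a, of early endosomes, at 791 stretched and 349 control counts (2.40, 2.11 to 2.73) and Rab18 at 405 stretched and 185 control counts. Nuclear transport had 7 of 48 (14.6%). Tpr, of the nuclear basket, shared 933 stretched and 391 control counts with Odr4, and Xpo1, the main exporter of proteins from the nucleus, had 703 stretched and 354 control counts. Chaperones had 11 of 76 (14.5%), among them Dnajb9 (454 stretched, 200 control) and Cct5 with Atpsckmt (355 stretched, 178 control). Ubiquitin enzymes had 35 of 248 (14.1%). Cblb, a ligase that restrains receptor signalling, had 640 stretched and 306 control counts, and Uba6, an enzyme that activates ubiquitin, had 644 stretched and 264 control counts. Proteasome genes had 4 of 41 (9.76%), with Psma2, which shares its region with Mrpl32, at 396 stretched and 181 control counts and Psmc6 at 292 stretched and 142 control counts.

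Among genes linked to force, actin genes had 8 of 55 regions (14.5%, median log2 ratio 0.44). Diaph3, a formin that builds actin filaments, had 397 stretched and 165 control counts (2.55, 2.12 to 3.07), and Wasl, an activator of branched actin, had 403 stretched and 202 control counts. Myl12a, a myosin light chain, had 345 stretched and 137 control counts. YAP and TEAD genes had 2 of 30 (6.67%, median log2 ratio 0.38), both of the kinase module upstream of YAP. Stk3 had 240 stretched and 111 control counts and its partner Mob1b had 238 stretched and 119 control counts. EGFR and MAPK genes had 7 of 72 (9.72%, median log2 ratio 0.45). Rasa1, a Ras inhibitor, had 640 stretched and 263 control counts. Spry2, a feedback inhibitor, had 400 stretched and 206 control counts. Adhesion and junction genes had 2 of 60 (3.33%), with a median log2 ratio of 0.37, near the 0.36 of all strong gene-end regions. The 2 were Cldn12 (357 stretched, 169 control) and Lims1 (229 stretched, 121 control), a claudin and an adaptor of integrin contacts. Epidermal identity genes had 1 of 30 (3.33%) and a median log2 ratio of 0.09. It was Grhl1, a transcription factor of the epidermal barrier, with 247 stretched and 118 control counts (2.22, 1.77 to 2.78).

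The remaining lists lay near or below the background in share. Their median log2 ratios stood on both sides of the 0.36 of all strong gene-end regions. Respiratory chain genes were at 0.53, numbered zinc finger genes at 0.45 and chromatin regulators at 0.43. Clock genes were at 0.24, Wnt, Notch, BMP and TGF-beta genes at 0.26 and Hox genes at 0.02. Numbered zinc finger genes had 31 of 249 (12.4%), with 793 stretched and 335 control counts at Zfp91 (shared with Lpxn) and 697 stretched and 311 control counts at Zfp654 (shared with Cggbp1). Chromatin regulators had 15 of 157 (9.55%), with Setd5 at 757 stretched and 306 control counts and Brpf1, a scaffold of an acetyltransferase complex, at 675 stretched and 345 control counts. Clock genes had 2 of 20 (10%), among them Bhlhe40 (588 stretched, 298 control). Respiratory chain genes had 6 of 78 (7.69%), with Ndufa5 at 367 stretched and 165 control counts and Atp5j in a region shared with Gabpa, the gene of an ETS factor, at 542 stretched and 248 control counts. Solute carriers had 8 of 189 (4.23%, median log2 ratio 0.17), with the most counts at Slc25a40, sharing its region with Dbf4 (531 stretched, 181 control; 3.11, 2.62 to 3.70), and Slc31a1, a copper importer, sharing with Fkbp15 (381 stretched, 188 control). Wnt, Notch, BMP and TGF-beta genes had 2 of 59 (3.39%), at Skil (377 stretched, 171 control) and Smurf1 (248 stretched, 123 control), both of which restrain SMAD signalling. None of 12 Hox gene regions was among the 981. In all, 286 of the 981 regions stood at a gene of at least 1 of the 29 lists and 695 at none.

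**Figure D3:**
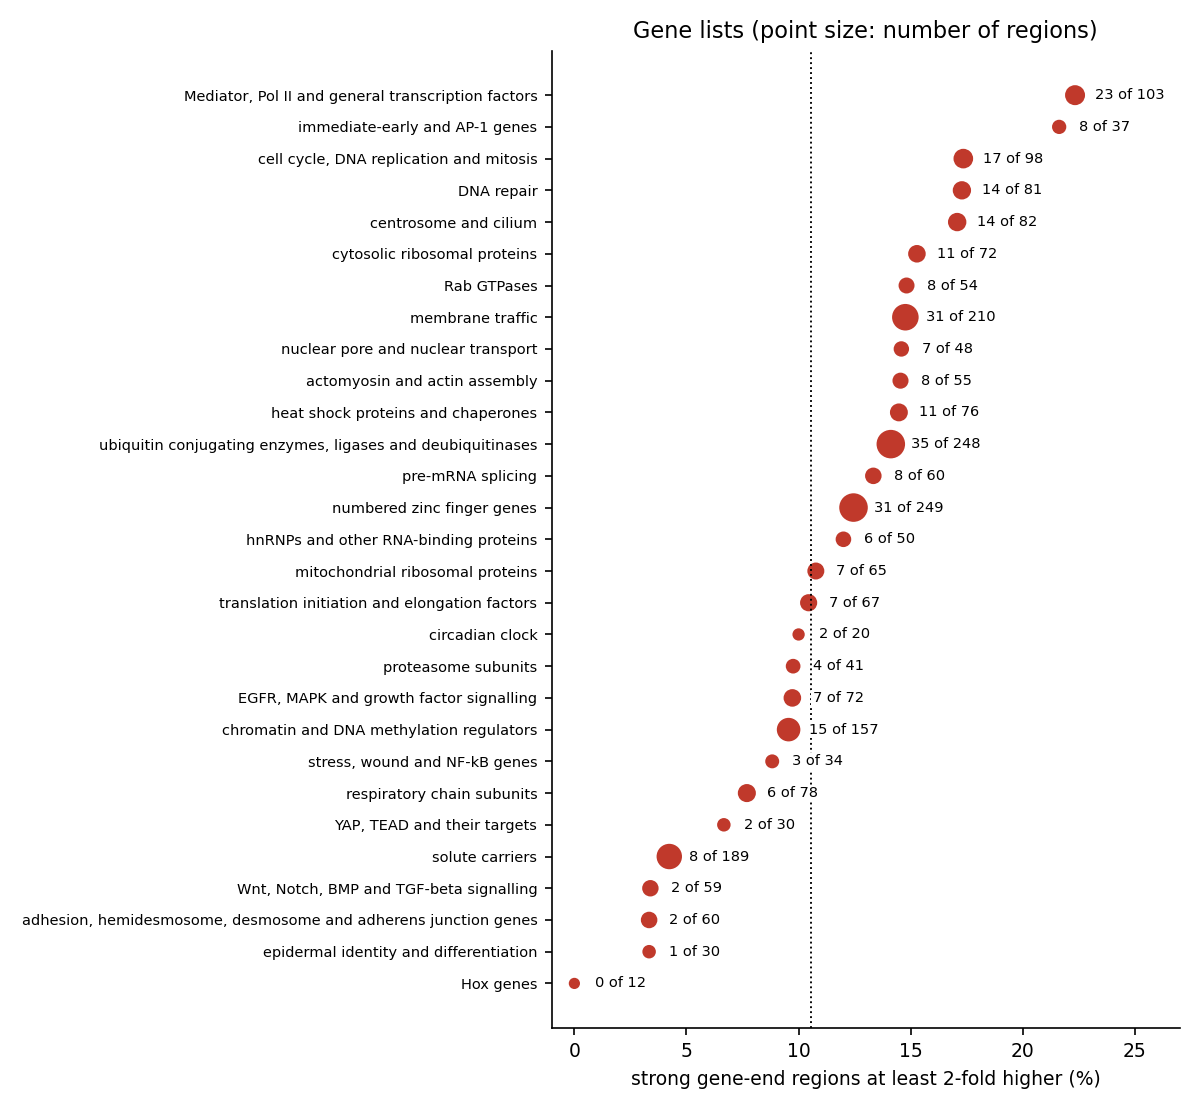
Share (%) of the strong gene-end regions of each gene list that are among the 981, 1 point per list, with the count beside it and the point size by number of regions. The dotted line is the 10.5% of all strong gene-end regions; the transcription machinery has the largest share (22.3%) and Hox genes the lowest (0 of 12).

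The 981 regions lay in gene-poor surroundings, a feature the rule did not use. Within 500 kb of them a median of 9 protein-coding genes was centred (quartiles 6 and 14), against 16 around the other 8326 (9 and 27) and 19.5 around the 80 regions that were at least 2-fold lower. The share of strong gene-end regions among the 981 was 19.8% (214 of 1081) with 0 to 5 genes nearby and 17.6% (360 of 2043) with 6 to 10. It was 12.4% with 11 to 15, 5.81% with 16 to 20, and 3.58% (32 of 895) with over 40. The order held within each class of summed count. With 500 or more counts it was 32.5%, 17.7% and 5.04% at 0 to 10, 11 to 20 and over 20 genes, and with 100 to 199 counts 7.69%, 5.96% and 3.36%. It also held within classes of promoter GC content, for instance at 21.1%, 11.9% and 4.37% in windows of at least 65% GC. Sites over 1 kb from gene ends showed the same order, with 5.69%, 3.25% and 1.90% at least 2-fold higher, so the gradient was not limited to promoters. The gene lists differed in density too, with medians of 12 genes for cell cycle, 11 for adhesion, 24 for numbered zinc finger and 31 for epidermal identity regions. List shares were not adjusted for density.

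The share also grew with the count itself, from 5.11% at 100 to 149 summed counts to 22.2% at 600 or more, and the median log2 ratio of all strong gene-end regions grew with it, being 0.04 in the lowest class and 0.67 in the highest. The 981 had a median of 406 summed counts and the rest 278. The summed count includes the stretched count that the rule used, so this growth is not independent of the rule. Control counts alone had close medians, 126 for the 981 and 130 for the rest. With the trend of the ratio with summed count removed (lowess), 297 regions passed, 296 of them from the 981.

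Promoter windows of 300 bases (250 before to 50 after a start) were held for 789 of the 981 regions and 6357 of the rest. Their CpG content, as observed over expected CpG (the number of CpG set against that given by the C and G content), had a median of 0.859 for the 981, 0.784 for the rest, 0.641 for the lower regions (48 with a window) and 0.567 over all 21262 windows of the annotation. At least 0.6 was reached by 722 of the 789 (91.5%) and by 5001 of the 6357 (78.7%). The share among the 981 was 2.80% (15 of 535) below 0.4, 5.86% from 0.4 to 0.6, 9.78% from 0.6 to 0.8, 13.3% from 0.8 to 1 and 17.4% (167 of 960) at 1 or more. The order was the same within classes of gene density: with up to 10 genes nearby it was 8.47%, 18.9% and 24.7% for CpG under 0.6, from 0.6 to 0.9 and above, and with over 20 genes 2.48%, 4.19% and 6.01%. GC content differed less, with medians of 64.3% for the 981 and 62.2% for the rest, and this small difference reversed (-0.25 percentage points) once the trend with count was removed.

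**Figure D4:**
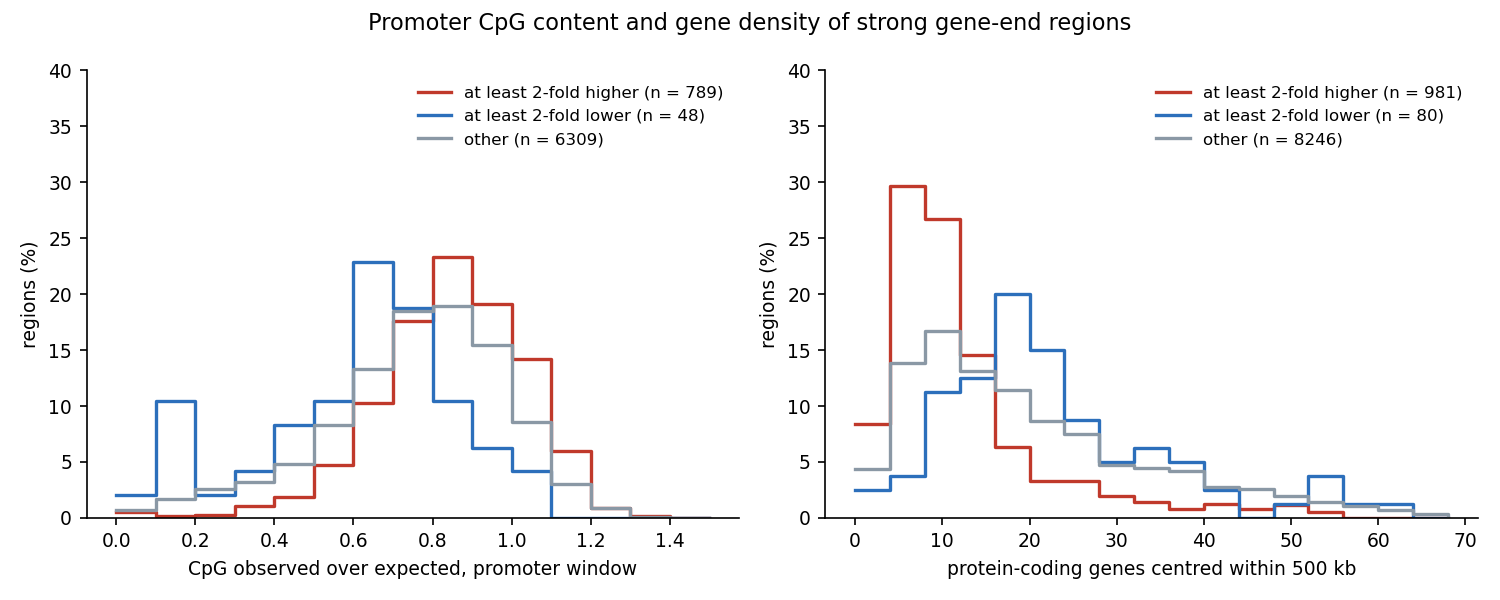
Distribution (% of regions in each bin) of observed over expected CpG in promoter windows, left, and of gene number (protein-coding genes centred within 500 kb), right, for the regions at least 2-fold higher, at least 2-fold lower and other strong gene-end regions. The higher regions, with medians of 0.859 and 9 genes, lie to the right of the others in CpG and to the left in gene number.

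**Figure D5:**
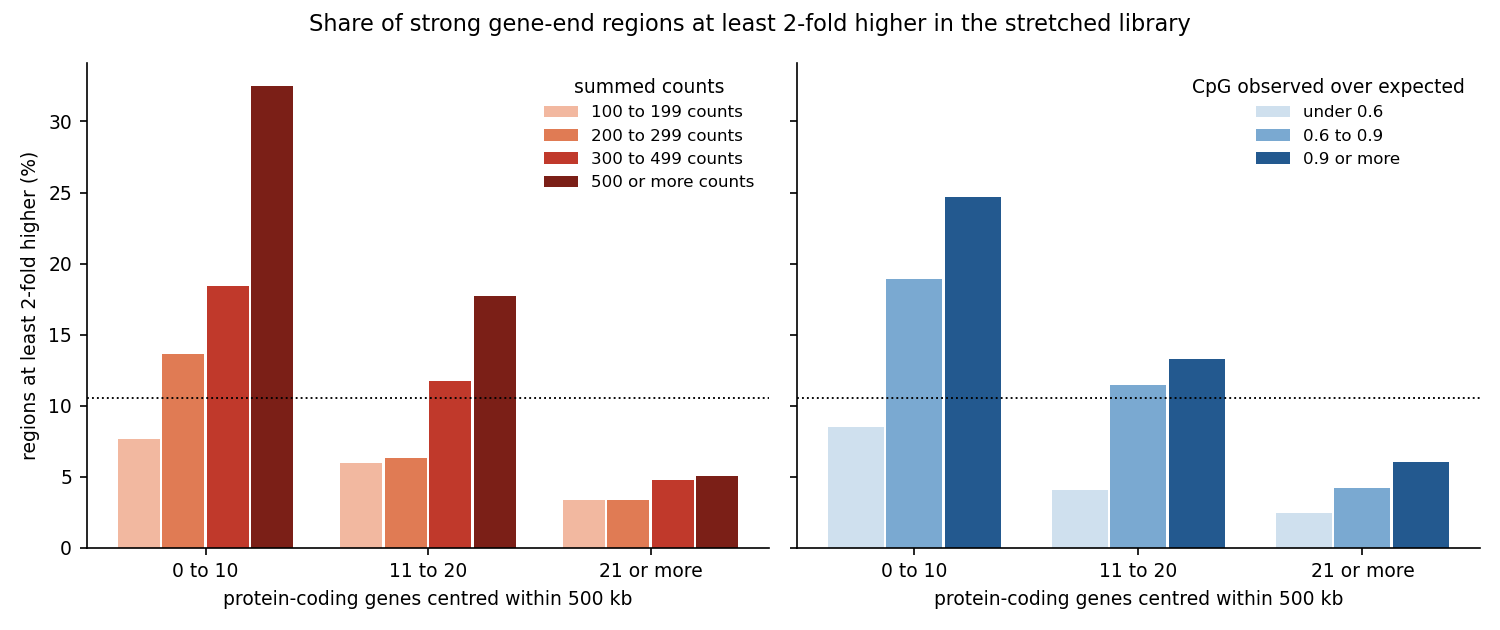
Share (%) of strong gene-end regions that belong to the 981, by gene number within 500 kb (x axis) and by summed counts (left) or observed over expected CpG (right). The dotted line is 10.5%; bars fall from few to many genes in every class, with the highest at 32.5% for 500 or more counts and 0 to 10 genes.

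Motifs were searched as plain letters on both strands of the windows. A region held a motif if any of its windows matched, while shares over the annotation are per single window, so the 2 are not alike. Regions with more windows also had more sequence to match. Windows of 2 genes on opposite strands stood in 15.1% of the 789 and 10.4% of the rest. No share was adjusted for the number of windows. The ETS motif CCGGAAG stood in 26.9% of the 789 and in 19.8% of the rest, beside 11.6% of all windows of the annotation. The cyclic AMP response element TGACGTCA stood in 5.70% of the 789 and 3.73% of the rest (all windows 2.23%), and the NRF1 motif in 15.3% of the 789 and 11.9% of the rest (all windows 6.38%). The E-box CACGTG stood in 15.3% of the 789 and 11.8% of the rest (7.84%), and the GC box GGGCGG in 79.2% of the 789 and 73.7% of the rest (46.2%). The YY1 core AAGATGGCG was in 5.32% of the 789 and 3.26% of the rest (1.83%), and the ZBTB33 motif in 2.15% of the 789 and 1.05% of the rest (0.673%). All 7 of these motifs contain a CpG, and CpG content itself differed. The E2F motif TTTSGCGC (S is C or G), which also holds a CpG, was in 3.17% of the 789 and 1.78% of the rest (1.05%). The heat shock motif GAANNTTC, which needs no CpG, was in 7.98% of the 789 and 5.88% of the rest (7.21%). AP-1 (TGANTCA) was in 4.94% of the 789 and 5.21% of the rest (all windows 6.99%), and TEAD (GGAATG) in 10.5% of the 789 and 12.8% of the rest (13.6%). NF-kB was in 5.32% of the 789 and 6.25% of the rest (4.81%), and the SRF CArG box in 1.39% of the 789 and 1.24% of the rest (1.52%). The CCAAT box stood in 39.8% of the 789 and 42.0% of the rest (38.2%), and the TATA motif TATAAA in 6.21% of the 789 and 7.05% of the rest (12.6%). Among CpG-rich windows alone (at least 0.6), the share of regions among the 981 was 15.7% with the ETS motif and 11.7% without it, and 17.5% with and 12.3% without the heat shock motif. There it was 15.3% with and 12.5% without the AP-1 motif, the other direction from that over all windows, 15.4% with and 12.6% without the CArG box, and 11.2% with and 12.8% without the TEAD motif. A match is a run of letters and not a bound site, and no motif was tested.

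Most of the 981 ends were starts of genes. A start, as far as strand was annotated, lay in 81.8% of them and in 6536 of the rest (78.5%). The 6 at far ends alone were Capsl, Mmp10, Il4ra, Nrgn, Zfp329 and Klf6. Of these Mmp10, a secreted protease of wounded epidermis, had 146 stretched and 71 control counts. Ends of at least 2 genes were touched by 165 regions (16.8%) and by 1091 of the rest (13.1%), and together the 981 touched ends of 1145 genes. Windows of genes read in opposite directions stood in 779 strong regions, of which 119 (15.3%) were among the 981, against 670 of 6367 other regions with a window (10.5%). These shared promoters had the higher median log2 ratio (0.51 against 0.36), with a median of 383 summed counts against 290 and of 18 genes nearby against 15. The part of the count in this difference was not tested.

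More often than the rest, the 981 regions had a neighbour from among the 981. The nearest strong gene-end region was also among the 981 for 246 of them (25.1%) and for 776 of the 8326 others (9.32%), at median distances of 65033.5 and 42537.5 bp. Its median log2 ratio was 0.72 beside the 981 and 0.33 beside the others. There were 10 runs of at least 4 adjacent strong gene-end regions that all qualified, and 3 of them held 6. On chromosome 10, from 116580611 to 117377774, the run took in Cnot2, Rab3ip, Cct2, Frs2, Yeats4 and Cpsf6, with ratios between 2.10 and 2.63. On chromosome 6, from 6955557 to 8510964, it took in Sdhaf3, Asns, C1galt1, Mios, Rpa3 with Umad1, and Glcci1. The run on chromosome 18 (46311423 to 49756239) ended with Dtwd2 and included Ap3s1 with Atg12. By chromosome the share was highest on 18 (18.3%), 13 (16.9%) and 3 (16.8%) and lowest on 15 (6.38%) and 11 (3.71%, 29 of 781). Chromosome 11 is also dense in genes, with a median of 21 genes around its strong gene-end regions against 9 on chromosome 18. Copy number in the 2 outbred animals was not measured.

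Regions inside the same genes were not chosen by their ratio, so smaller ratios there than in the 981 follow from the rule. The 1145 genes with an end in the 981 had 2281 regions over 1 kb from any end and with at least 20 counts, in 630 of the genes. Their median log2 ratio was 0.22, and 13.4% were at least 2-fold higher and 5.30% at least 2-fold lower. In genes of the other strong regions, 23820 such regions had a median of -0.11, with 6.29% higher and 12.2% lower. These inner regions were weak, with median summed counts of 55 in the genes of the 981 and 64 in the others. The 981 themselves had a median of 406.

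Exceptions to the CpG and density patterns were few. Windows with CpG under 0.4 stood at 15 of the 981 regions, C1s1 among them. Anxa1, a phospholipid-binding protein that limits inflammation, had 184 stretched and 82 control counts (2.38, 1.82 to 3.12). Casp4, an inflammatory caspase, had 70 stretched and 32 control counts, and Skint1, which shapes epidermal T cells in mice, had 115 stretched and 59 control counts. Clec2d, Serpinb10, Mgst1, Aadac, Noct, Cbr4, C1rl, Scyl3, Sec62, Zfp773 and Zfp983 were the others, with ratios between 2.03 and 2.75. In the densest surroundings, with over 40 genes, 32 regions qualified. Among them were 8 histone gene regions on chromosome 13, including H2ac12 with H2bc12 (184 stretched, 91 control), H4c6 (146 stretched, 74 control) and H3c11 (72 stretched, 28 control). Histone genes are near-identical copies, so reads could be split or pooled between them and these values are uncertain.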

How the data were processed

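ATAC-seq libraries of 1 stretched and 1 control mouse were analysed, grouped by the treatment label. Tools named in the submitters' processing notes are MACS2 2.1.0.20151222, HTSeq, Picard, SAMtools and Bowtie2 2.2.6, and the build is GRCm38. The deposited counts are raw counts per merged region. The counting method, the treatment of duplicates and the handling of Tn5 shifts were not given in the sources used here. Per the file headers, the authors called peaks with MACS2 on each library alone, with no control file. The deposited pileup at summits is a signal in whole fragments. The deposited fold enrichment, a ratio, and the -log10 of p-values and q-values, also deposited, are relative to local background, and the -log10 values were not used further.

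Regions were matched to 21896 protein-coding genes and 21262 promoter windows of 17491 genes (RefSeq, GRCm38.p6). Windows of chromosome 18 were not analysed here. Ratios were scaled by the median ratio of 94849 regions. With 1 library per group edgeR's quasi-likelihood test cannot be run. TMM factors of edgeR 4.0.16 and size factors of DESeq2 1.42.0 (R 4.3.3) served as alternative scalings, beside totals, a lowess trend and other limits. Scripts were tested on simulated data and used Python 3.11.15, pandas 2.3.3, scipy 1.17.1, statsmodels 0.14.6 and matplotlib 3.10.9. The regions, gene lists and motifs were chosen with earlier results of these data known. Regions were named by rule, as the 10 largest ratios, the 10 with the most counts, up to 2 per gene list by counts, and 3 on either side of the limit. Some regions named by this rule are not reported here. Other genes with values (among them Gtf2b, Polr2b, Ccne1, Cenpe, Cdkn2b, Klf6, Nr4a2, Nr4a3, Fosb, Rel, Bard1, Myl12a, Marcks, Yod1, Mmp10, Anxa1, Casp4, Skint1 and the histone genes) were named after their values were seen.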

Additional observations from a re-analysis of the deposited data

Results flagged for a closer look

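A signal stood in data outside the autosomal rule. On the X chromosome, 71 of 238 gene-end regions with at least 100 counts (29.8%) had a stretched over control ratio of 2 or more, and their median log2 ratio was 0.73, beside 10.5% and 0.36 on autosomes. X regions away from gene ends showed it too, with 15.2% of the strong ones at least 2-fold higher, against 4.36% on autosomes. With 0 to 5, 6 to 10, 11 to 15 and more than 15 genes nearby, the share of X gene-end regions was 31.4%, 32.9%, 31.2% and 24.6%, so that the decline with gene density seen on autosomes was smaller there. Summed over all X regions the scaled ratio was 1.44 (1.43 to 1.46), and over all autosomal regions outside the largest it was 1.10. Y regions summed to 925 stretched and 1253 control counts (0.782, 0.717 to 0.852), so both libraries held Y counts. Why the X regions differ was not tested.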

How the results depend on the processing

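No paired analysis was possible because there was 1 library per group. Of 9307 strong gene-end regions, 981 passed, against 968 with TMM factors of edgeR and 1002 with size factors of DESeq2. The count depended on the scale: it was 69 with total counts (a log2 shift of -0.50), 574 with counts outside the 10 large regions (-0.14), 186 with the median of the gene-end regions themselves (-0.36) and 2642 with fragments after filtering (0.34, added after seeing the data). It was 297 with the lowess trend removed, 3130 at a ratio of 1.5, 48 at 3, 4695 with an interval from 1 upward and 240 from 2 upward. Pileup ratios (also added) gave 1034, 560 of them shared. Of the 76 regions of the 981 chosen by the naming rule, 72 still reached 2 with TMM factors, 76 with size factors and with fragments, 13 with total counts, 49 with counts outside the large regions, 23 with the gene-end median and 14 without the trend, where the lowest ratio was 1.11. In every setting run, median gene density was lower and median CpG observed over expected higher in the regions that passed than in the rest. The density difference was -7 genes, and -8 with fragments, -6 without the trend and -8 for intervals from 2 upward. The CpG difference was 0.0757, and 0.0591 with the gene-end median and 0.0539 at a ratio of 3. The GC difference of 2.17 percentage points became 3 with the gene-end median, 1.17 at a ratio of 3, 3.67 for intervals from 2 upward and -0.25 without the trend. The Krt14 region at 1.29 fell to 0.913 with total counts and to 0.913 without the trend. Depth limits single regions: the counting interval of Commd9 (123 stretched, 37 control counts) ran from 2.42 to 5.23.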

Other observations

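Gene ends on the Y chromosome, which the rule leaves out, had few counts in both libraries. Kdm5d, a histone demethylase gene, had 38 stretched and 8 control counts, Eif2s3y, a translation factor gene, 47 stretched and 17 control counts, Uty 46 stretched and 28 control counts and Ddx3y 47 stretched and 31 control counts. All 4 had more counts in the stretched library, while the Y chromosome as a whole had fewer.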
